A study of Mus musculus with 13 samples.

Results

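Tgfbr1, Bambi and Zeb1 are 3 genes of transforming growth factor beta (TGF-beta) signalling, and they were read as 3 of the 56923 gene IDs in each of 13 RNA sequencing libraries. They were chosen by symbol and by position, because each lies in a stretch of the genome where gene names could be trusted. TGF-beta binds a type II receptor that recruits and phosphorylates the type I receptor encoded by Tgfbr1, and the active pair phosphorylates SMAD2 and SMAD3, which enter the nucleus with SMAD4. Bambi encodes a pseudoreceptor that resembles a type I receptor without a kinase domain and damps the signal. Zeb1 encodes a zinc finger E-box binding repressor that binds activated SMADs. It is known for driving the epithelial to mesenchymal transition and, in mice, for its need in early T-cell development, while TGF-beta itself restrains T cells and shapes macrophages and fibroblasts in tumours.

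RNA came from cells that carry CD45, the surface marker of blood cells, which were sorted out of tumours grown under the skin of mice. The tumours were of EL4, a line of mouse T-cell lymphoma, so the lymphoma cells can carry CD45 as well. The PSGL1_KO group held 6 libraries from tumours grown from EL4 cells with a knockout of PSGL1, a selectin ligand of leukocytes, and the vector group held 7 libraries from tumours of EL4 cells carrying a vector. In both groups 500000 cells per mouse were injected into the right flank of mice aged 6 to 8 weeks, and tumours were taken after almost 20 days. The labels name neither the strain of the mice nor whether the knockout line was 1 clone. No label ties a replicate to a separate mouse, and p-values therefore reflect only how these libraries vary, which may be technical. The title of the series concerns PSGL-1 and phagocytosis by macrophages.

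Counts on gene IDs numbered 3710817 to 5712566 per library. In each group 2 libraries have a file number starting with 3, and the remaining 4 PSGL1_KO and 5 vector libraries have one starting with 7. These 2 sets of libraries, called file number 3 and file number 7 below, differed in 39.8% of IDs tested with the group in the model, and what the number stands for is not given. The results for the 3 genes are therefore also given within each file number. The sort marker and the knockout could not be checked. The ID of Selplg, the gene of PSGL-1, had 3 to 63 counts in PSGL1_KO and 11 to 53 counts in vector libraries, but it lies outside the stretches with trusted names. In the stretch of chromosome 18 with Bambi and Zeb1, 4 genes used by most cells had clear signal: Kif5b averaged 962 CPM (read counts scaled to a common library size), Usp14 654 CPM, Thoc1 428 CPM and Cul2 309 CPM. There the testis genes Cetn1 and Lyzl1 had at most 0 and 2 counts in any library. These 6 genes were chosen after their values had been seen. Vector replicate 5 stood apart in its share of mitochondrial counts, at 34.5%, while the shares were 10.0% to 17.8% in PSGL1_KO and 11.6% to 16.2% in the other vector libraries. Without it the log2 fold changes given below were 0.88 for Tgfbr1, 1.42 for Bambi and -0.14 for Zeb1, with the same calls.

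RNA of the type I receptor and RNA of the pseudoreceptor were both higher in PSGL1_KO, and Zeb1 did not pass the test over all libraries. Tgfbr1 averaged 205 ± 51.3 CPM in PSGL1_KO and 109 ± 40.6 CPM in vector libraries (SD, n = 6 and n = 7). Bambi averaged 11.9 ± 4.98 CPM in PSGL1_KO and 4.66 ± 1.78 CPM in vector libraries. Zeb1 averaged 151 ± 32.2 CPM in PSGL1_KO and 161 ± 28.9 CPM in vector libraries. These CPM were normalised with TMM (trimmed mean of M-values) factors. With edgeR's quasi-likelihood test and Benjamini-Hochberg adjustment over 10422 IDs, 2 of the 3 genes passed the threshold of 0.05. Both were higher, against 9.02% of all IDs tested called higher, 5.49% called lower and 14.5% called in either direction. Among the 430 tested IDs with trusted names, 24.4% were called, 18.8% as higher and 5.58% as lower. Over all 13 libraries the groups overlapped for each of the 3 genes, while 4.14% of IDs had every PSGL1_KO library above every vector library.

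**Figure D1:**
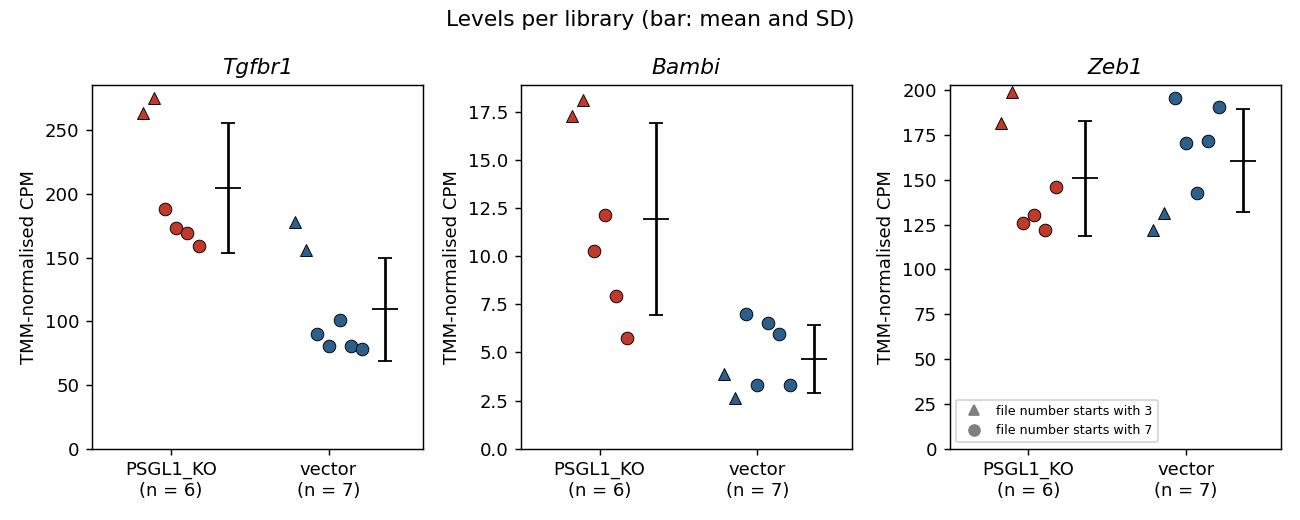
Each point is the level of Tgfbr1, Bambi or Zeb1 in 1 library, in TMM-normalised CPM, with PSGL1_KO at the left and vector at the right of each panel. Triangles are libraries of file number 3, circles those of file number 7, and the bars show the mean and SD of the group. The 3 highest Tgfbr1 and the 5 highest Bambi libraries of PSGL1_KO lie above every vector library, and Zeb1 overlaps.

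Tgfbr1 (ENSMUSG00000007613.16, GRCm38 chromosome 4, 47353222 to 47414931, plus strand) is the kinase receptor that starts SMAD2 and SMAD3 signalling. In file number 3 it had 264 and 275 CPM in the PSGL1_KO libraries, against 178 and 156 CPM in the vector libraries. In file number 7 it had 188, 173, 169 and 159 CPM in the PSGL1_KO libraries, against 90.3, 81.0, 101, 80.9 and 78.4 CPM in the vector libraries. Within each file number every PSGL1_KO library was above every vector library. That held for 27.3% of all IDs tested in file number 3 and for 9.63% in file number 7. Shares of trusted IDs were not taken for these comparisons, nor for those in the next paragraph. Over all 13 libraries 18.8% of trusted IDs were called higher, against 9.02% of all IDs. Across file numbers the groups overlapped. Vector replicate 1 of file number 3 lay among the PSGL1_KO libraries of file number 7, vector replicate 2 lay just under them, and 3 of 6 PSGL1_KO libraries exceeded the whole vector group. The log2 fold change (PSGL1_KO minus vector) was 0.90 ± 0.22 (SE; 95% interval from 0.45 to 1.36), with adjusted p = 0.0082 in the edgeR test.

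With the file number as a covariate the change in Tgfbr1 was 0.90 ± 0.10, with adjusted p = 9e-07 in the edgeR test. Within file number 7 it was 0.99 ± 0.11 with adjusted p = 1.5e-05 in the edgeR test, where 11.2% of IDs were called higher. Within file number 3, on 2 libraries per group, it was 0.72 ± 0.19 with adjusted p = 0.0016 in the edgeR test, where 12.5% of IDs were called higher. The p there rests on a spread shared over IDs. The test of the difference between these 2 changes did not pass, with file number 3 minus file number 7 at -0.31 (95% interval from -0.72 to 0.11) and adjusted p = 0.43 in the edgeR test. Tgfbr1 also differed between the file numbers themselves, and was higher in file number 3 by 0.81 ± 0.11 on the log2 scale with the group in the model (adjusted p = 9.3e-06 in the edgeR test), where 18.9% of IDs were called higher. In the exact permutation test on log2(CPM + 1), two-sided, the group difference was 0.94 with p = 0.0070. Permuted within file numbers it was 0.84 with p = 0.0013, the smallest that the 756 exact splits can give. That p follows from the lack of overlap within each file number, so it adds no separate support. This permutation was added after the data had been seen. When each library was left out in turn, the log2 fold change of Tgfbr1 lay between 0.81 and 1.06, and it passed each time.

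The sequence upstream of Tgfbr1 is shown because this receptor changed within both file numbers. These are the 250 bases before its RefSeq start on GRCm38.p6, chr4:47352972-47353221, plus strand. Capitals mark the CCAAT box (CCAAT, or ATTGG on this strand) and the GC box (GGGCGG).
Tgfbr1 promoter: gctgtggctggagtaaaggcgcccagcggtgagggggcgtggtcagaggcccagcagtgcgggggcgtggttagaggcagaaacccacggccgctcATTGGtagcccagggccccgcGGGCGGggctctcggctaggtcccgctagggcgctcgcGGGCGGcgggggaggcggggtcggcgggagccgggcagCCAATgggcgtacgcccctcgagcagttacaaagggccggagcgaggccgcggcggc
On both strands together, these letters held 2 CCAAT and 2 GGGCGG matches, none of which overlap, and 74.8% of the bases were G or C. Windows of the same length with at least 1 match made up 33.8% of 32851 RefSeq promoter windows for CCAAT and 32.7% for GGGCGG. The E-box letters CACCTG, which ZEB proteins bind, and the SMAD element letters CAGAC had 0 matches in this window. CACCTG was in 17.2% of all windows and CAGAC in 42.2%. RefSeq lists 2 windows for Tgfbr1, and the one at the start of the gene is printed.

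Bambi (ENSMUSG00000024232.3, GRCm38 chromosome 18, 3507923 to 3516404, plus strand) was counted with far fewer reads. It had 71 and 66 counts in the PSGL1_KO libraries of file number 3 and 55, 72, 47 and 30 in those of file number 7. The vector libraries had 15 and 12 counts in file number 3 and 29, 15, 27, 30 and 13 in file number 7. As levels, the PSGL1_KO libraries had 17.3 and 18.1 CPM in file number 3, against 3.86 and 2.63 CPM in the vector libraries. In file number 7 the PSGL1_KO libraries had 10.3, 12.2, 7.93 and 5.75 CPM, against 6.98, 3.32, 6.55, 5.96 and 3.33 CPM in the vector libraries. The groups stood apart in file number 3, as did 27.3% of all IDs tested with PSGL1_KO above vector. They overlapped in file number 7, where PSGL1_KO replicate 6 fell within the vector range. Over all libraries 5 of 6 PSGL1_KO libraries exceeded the whole vector group. The log2 fold change was 1.34 ± 0.31 (95% interval from 0.70 to 1.98), with adjusted p = 0.0058 in the edgeR test.

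Within file number 3, on 2 libraries per group, the log2 fold change of Bambi was 2.48 ± 0.40 with adjusted p = 3.8e-08 in the edgeR test, where 12.5% of IDs were called higher. Within file number 7 it was 0.78 ± 0.30 and did not pass, with adjusted p = 0.078 in the edgeR test. The difference between them was 1.66 (95% interval from 0.56 to 2.77), with an unadjusted p of 0.0052 in the edgeR test and adjusted p = 0.093, so it did not pass over all IDs. With the file number as a covariate the change was 1.27 ± 0.29 with adjusted p = 0.0025 in the edgeR test. In the exact permutation test, two-sided, the group difference on log2(CPM + 1) was 1.16 with p = 0.0047, and permuted within file numbers it was 1.42 with p = 0.013. Leaving out each library in turn gave log2 fold changes from 1.20 to 1.51, and Bambi passed each time. Bambi has a processed pseudogene on chromosome 2, Bambi-ps1, whose ID had 0 counts in all libraries. That ID lies outside the trusted stretches, so whether reads of Bambi were lost to the copy was not tested.

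Zeb1 (ENSMUSG00000024238.16, GRCm38 chromosome 18, 5591860 to 5775467, plus strand) moved in opposite directions in the 2 file numbers. In file number 3 it had 182 and 199 CPM in the PSGL1_KO libraries, against 122 and 132 CPM in the vector libraries. PSGL1_KO thus lay above vector with no overlap, as for Tgfbr1 and Bambi in these 4 libraries and for 27.3% of all IDs tested. In file number 7 Zeb1 had 126, 130.4, 122 and 146 CPM in the PSGL1_KO libraries, against 196, 171, 143, 172 and 191 CPM in the vector libraries. There 3 of 4 PSGL1_KO libraries lay under the whole vector range, and PSGL1_KO replicate 6 was above vector replicate 5 alone. Within file number 3, on 2 libraries per group, Zeb1 rose, with a log2 fold change of 0.62 ± 0.19 (95% interval from 0.24 to 1.00). The adjusted p was 0.0097 in the edgeR test, where 12.5% of IDs were called higher. That p rests on a spread shared over IDs and does not measure that of Zeb1. Within file number 7 Zeb1 fell, with -0.42 ± 0.12 (95% interval from -0.67 to -0.17) and adjusted p = 0.020 in the edgeR test, where 9.63% of IDs were called lower.

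The difference between these changes itself passed, at 1.00 ± 0.21 on the log2 scale for file number 3 minus file number 7 (95% interval from 0.57 to 1.43), with adjusted p = 0.023 in the edgeR test. Of all IDs tested, 2.11% passed this test. Among the 417 trusted IDs tested in both file numbers and in the joint fit, 2 were called higher in file number 3 and lower in file number 7, Zeb1 and the processed pseudogene Gm12411, which was named after its values had been seen. That is 0.48% of them, against 0.213% of all 9877 IDs tested in these fits. Over all 13 libraries the log2 fold change of Zeb1 was -0.09 (95% interval from -0.43 to 0.25), with adjusted p = 0.77 in the edgeR test. This pooled value was -0.18 to -0.02 with each library left out, and its sign turned to 0.029 without normalization factors. In the exact permutation test, two-sided, the pooled difference on log2(CPM + 1) was -0.10 with p = 0.53, and permuted within file numbers it was 0.090 with p = 0.56. Exons of Zeb1 share 198 bases with Gm10125 on the opposite strand, whose ID had at most 30 counts per library, and without a stated strand setting their reads cannot be told apart.

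**Figure D2:**
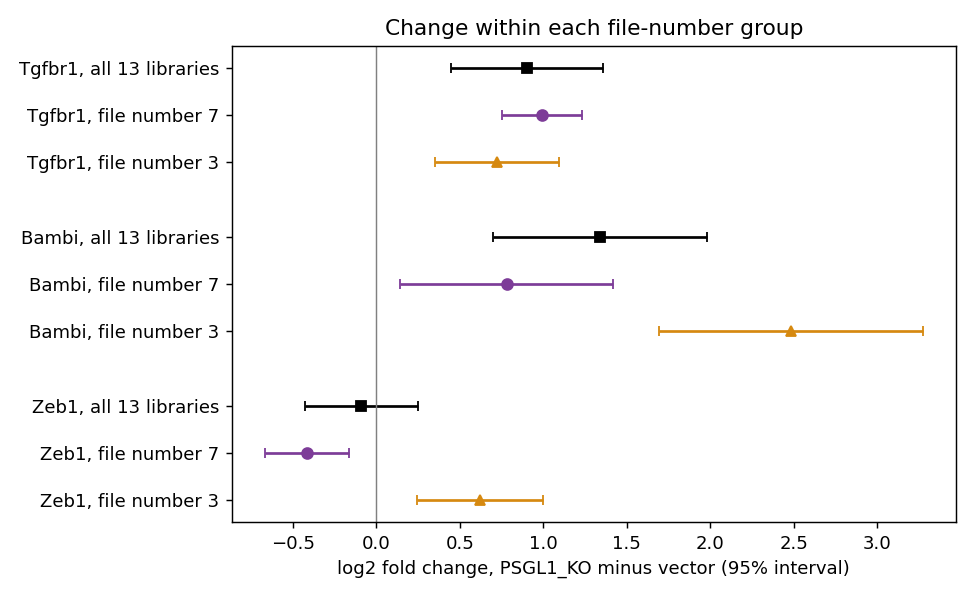
The log2 fold change of Tgfbr1, Bambi and Zeb1, PSGL1_KO minus vector, is plotted with its 95% interval for all 13 libraries (squares), file number 7 (circles) and file number 3 (triangles). Tgfbr1 is above 0 in all 3 fits, Bambi is 2.48 in file number 3 and 0.78 in file number 7, and Zeb1 is 0.62 in file number 3 and -0.42 in file number 7.

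Taken per kilobase of exon, Tgfbr1 was the most abundant of these genes in PSGL1_KO and Bambi the least in both groups. Tgfbr1 had 31.3 ± 7.85 CPM per kb in PSGL1_KO and 16.7 ± 6.22 in vector libraries. Zeb1 had 14.7 ± 3.13 CPM per kb in PSGL1_KO and 15.6 ± 2.81 in vector libraries, so in the pooled vector group Zeb1 and Tgfbr1 differed by less than their spread. That spread includes the file number. Before division by length, Tgfbr1 averaged 167 CPM in vector libraries of file number 3 and 86.3 CPM in those of file number 7. Zeb1 went the other way, with 127 CPM in file number 3 and 174 CPM in file number 7. Bambi had 2.35 ± 0.98 CPM per kb in PSGL1_KO and 0.92 ± 0.35 in vector libraries. The RNA level of Bambi as a percentage of that of Tgfbr1, per kilobase, was 8.43% and 8.48% in the PSGL1_KO libraries of file number 3, against 2.80% and 2.17% in the vector libraries. In file number 7 this percentage was 4.66% to 9.05% in 4 PSGL1_KO libraries and 5.28% to 9.96% in 5 vector libraries, and the groups overlapped. The lengths are exon unions of GENCODE M21, which may differ from the annotation the reads were counted with.

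**Figure D3:**
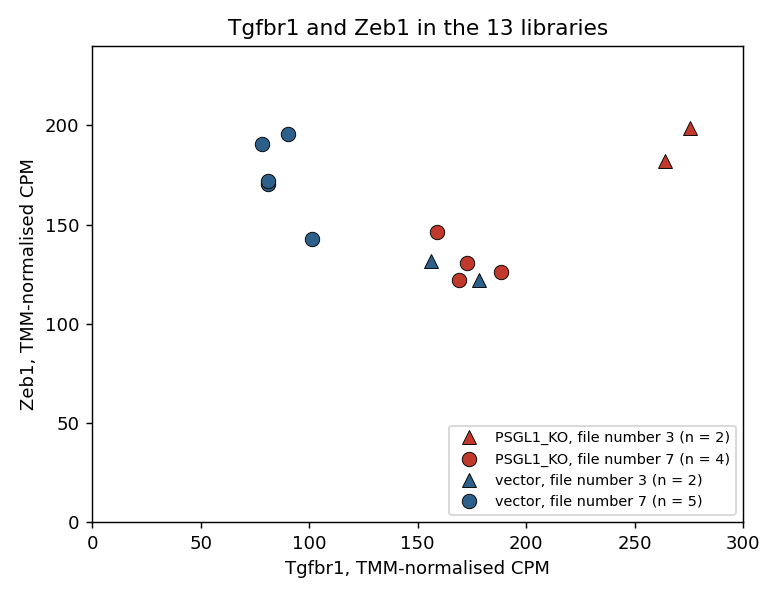
Each point is 1 library, with the level of Tgfbr1 on the horizontal and of Zeb1 on the vertical axis, both in TMM-normalised CPM. The PSGL1_KO libraries of file number 3 have the highest Tgfbr1 (264 and 275 CPM) with 182 and 199 CPM of Zeb1. The vector libraries of file number 7 have the lowest Tgfbr1 with Zeb1 from 143 to 196 CPM, and the other 2 sets lie between them in Tgfbr1 and at 122 to 146 CPM of Zeb1.

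The rest of the pathway could be read in few places. Of 108 pathway genes listed, 9 had a trusted name and 8 of these were tested, including Tgfbr1, Bambi and Zeb1. Of the other 5, 1 was called higher and 0 lower, a share near the 18.8% of trusted IDs called higher, so the count says nothing about the pathway. The median log2 fold change of these 5 was 0.46, beside 0.16 over the trusted IDs and -0.01 over all IDs tested. None of the 8 SMAD genes had a trusted name, and of 25 ligands and activators only Gdf6, a bone morphogenetic protein, had one, with at most 5 counts in any library.

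Sdc2, the heparan sulphate proteoglycan syndecan 2 of mesenchymal cells, was the gene called. It averaged 19.3 ± 9.49 CPM in PSGL1_KO and 9.66 ± 3.84 CPM in vector libraries, a log2 fold change of 0.99 ± 0.32 with adjusted p = 0.046 in the edgeR test. It still passed without vector replicate 1, PSGL1_KO replicate 3 or PSGL1_KO replicate 5. It did not pass without any one of the other 10 libraries, with adjusted p from 0.053 to 0.12, nor within file number 7, where its log2 fold change was 0.80 with adjusted p = 0.092 in the edgeR test. Within file number 3 it was 1.18 with adjusted p = 0.00097. With factors from trusted nuclear genes it did not pass either, at 0.74 with adjusted p = 0.096 in the edgeR test.

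Wwp1, a ubiquitin ligase that with SMAD7 promotes turnover of the type I receptor, averaged 202 ± 40.9 CPM in PSGL1_KO and 149.6 ± 30.8 CPM in vector libraries. Its log2 fold change was 0.43 with adjusted p = 0.081 in the edgeR test. Wwp1 passed with the file number as a covariate (0.41, adjusted p = 0.0053), within file number 7 (0.40, adjusted p = 0.013), without vector replicate 1 (0.54, adjusted p = 0.017) and without normalization factors (0.53, adjusted p = 0.0497). Cav1, which encodes caveolin 1 of the membrane pits through which receptors are internalised, averaged 149.7 ± 99.0 CPM in PSGL1_KO and 109 ± 31.6 CPM in vector libraries. Its log2 fold change was 0.46 with adjusted p = 0.41, and within file number 3 it passed with 0.81 and adjusted p = 0.00037. There the PSGL1_KO libraries had 207 and 317 CPM and the vector libraries 154 and 152 CPM, and the p does not measure the spread of Cav1 itself. Map3k7, the kinase TAK1 of the branch without SMADs, had 396 ± 70.9 CPM in PSGL1_KO and 364 ± 58.5 CPM in vector libraries, a log2 fold change of 0.12 (95% interval from -0.19 to 0.43) with adjusted p = 0.65 in the edgeR test. Its sign turned to -0.086 with factors from trusted nuclear genes.

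Col1a2, a collagen gene that TGF-beta induces in fibroblasts, was the target gene tested. It had 2617 ± 1209 CPM in PSGL1_KO and 1428 ± 536 CPM in vector libraries, a log2 fold change of 0.87 ± 0.33 with adjusted p = 0.083 in the edgeR test, and it passed without PSGL1_KO replicate 3 (1.07, adjusted p = 0.013). Within file number 3 it passed with 0.91 and adjusted p = 4.7e-05 in the edgeR test, and within file number 7 it had 0.87 with adjusted p = 0.31. The file number 3 libraries had 1618 and 3219 CPM in PSGL1_KO and 1387 and 1240 CPM in vector. The p there rests on a spread shared over IDs and does not measure that of Col1a2.

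**Figure D4:**
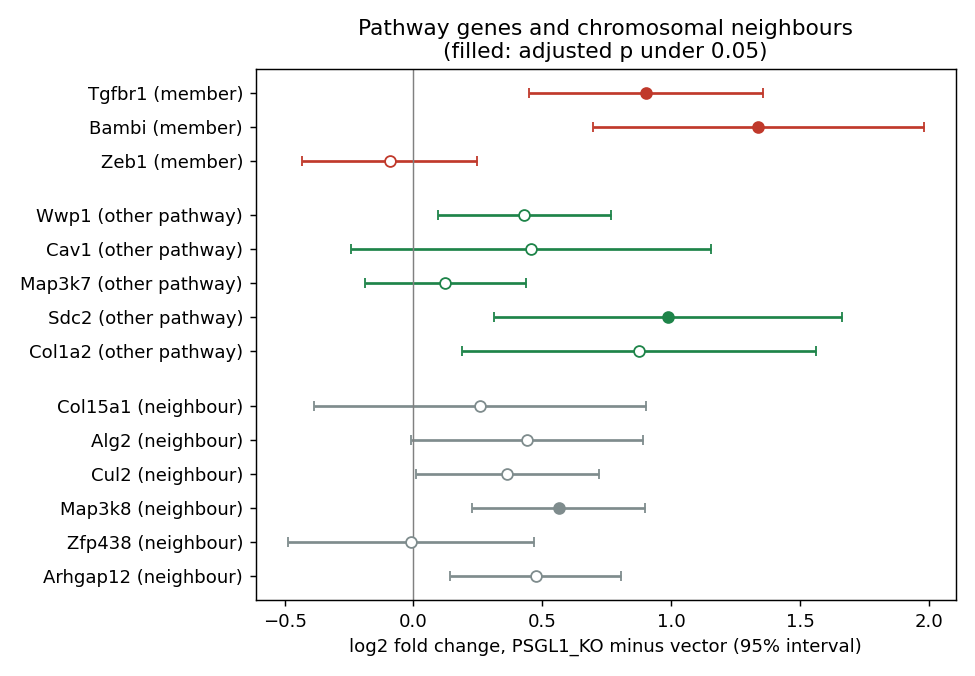
The log2 fold change, PSGL1_KO minus vector, is plotted with its 95% interval over all 13 libraries for the 8 tested pathway genes and for the genes next to Tgfbr1, Bambi and Zeb1 on the chromosome. Filled points passed at an adjusted p under 0.05, and these are Tgfbr1, Bambi, Sdc2 and Map3k8.

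Genes next to each member were read in the same way. On either side of Tgfbr1, the collagen gene Col15a1 had a log2 fold change of 0.26 (adjusted p = 0.64 in the edgeR test) and the glycosylation gene Alg2 had 0.44 (adjusted p = 0.19). Alg2 passed with the file number as a covariate, with 0.50 and adjusted p = 0.0011, and within file number 7 (0.42, adjusted p = 0.0066) and file number 3 (0.70, adjusted p = 0.0040). On either side of Bambi, the cullin gene Cul2 had 0.36 (adjusted p = 0.17 in the edgeR test), and Map3k8, a kinase of inflammatory signalling, rose by 0.56 ± 0.16 with adjusted p = 0.023. Cul2 passed with the file number as a covariate (0.31, adjusted p = 0.045) and within file number 3 (0.62, adjusted p = 0.0066). Map3k8 did not pass without vector replicate 6 (adjusted p = 0.052), without PSGL1_KO replicate 3 (adjusted p = 0.058) or with factors from trusted nuclear genes (0.38, adjusted p = 0.13). On either side of Zeb1, Zfp438 had -0.01 (adjusted p = 0.98 in the edgeR test) and Arhgap12 had 0.47 (adjusted p = 0.051). Zfp438 had 0.94 within file number 3 (adjusted p = 0.036 in the edgeR test) and -0.30 within file number 7 (adjusted p = 0.29), and the test of the difference, at 1.21 (95% interval from 0.47 to 1.95), did not pass with adjusted p = 0.070. Arhgap12 passed with the file number as a covariate (0.45, adjusted p = 0.0026 in the edgeR test), within file number 7 (0.42, adjusted p = 0.021) and within file number 3 (0.52, adjusted p = 0.030). It also passed with DESeq2 (adjusted p = 0.031), without factors (0.59, adjusted p = 0.017) and when any one of 4 libraries was left out (vector 1 or 2, PSGL1_KO 5 or 6), at adjusted p between 0.027 and 0.046.

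The genes with the most similar profile were sought among 266 or 267 trusted protein-coding genes with a mean of at least 20 CPM, by Pearson's r of log2(CPM + 1) over the 13 libraries. These r values describe libraries that share group, file number and scaling, and are given with no p. For Tgfbr1 they were Ufl1, a ligase of the UFM1 modifier, with r = 0.96, Arhgap12 with 0.95 and Impad1, a Golgi phosphatase, with 0.94. After the means of group and file number were removed, these were 0.80, 0.76 and 0.77. For Bambi they were Creb3, a membrane-bound transcription factor, with r = 0.92, Pop1, a subunit of ribonuclease P, with 0.86, and C9orf72, a regulator of endosomes and autophagy, with 0.84. After the same removal they were 0.48, 0.14 and 0.65. For Zeb1 they were Zfp706 with r = 0.80, Ube2j1, a ubiquitin-conjugating enzyme of the endoplasmic reticulum, with 0.76, and Nans, a sialic acid synthase, with 0.76, and after the removal 0.55, 0.72 and 0.53. Exons of Creb3 overlap Tln1 and Gba2, those of Nans overlap Trim14, and those of Ufl1, C9orf72 and Zfp706 overlap noncoding genes, all on the opposite strand, so their counts are uncertain.

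Markers of other cells are given by their counts, beside 18.8% of trusted IDs called higher and 5.58% lower. For myeloid cells, 3 of 8 markers had a trusted name, and all 3 (Lyn, Tfec and Atp6v0d2) were higher. Their summed level, in CPM without TMM factors, was 307 to 538 CPM in PSGL1_KO and 71.0 to 156 CPM in vector libraries, with no overlap. Of all single IDs tested, 4.14% lay apart in this way over all 13 libraries, 27.3% in file number 3 and 9.63% in file number 7. With TMM factors Lyn averaged 247 CPM in PSGL1_KO and 58.7 CPM in vector libraries. Atp6v0d2 overlapped in file number 7, at 73.4 CPM in PSGL1_KO replicate 5 and 73.8 CPM in vector replicate 7. For stromal cells, 9 of 14 were trusted, and of 7 tested, 2 (Sdc2 and Lpar1) were higher and 0 lower, with sums of 882 to 4489 CPM in PSGL1_KO and 571 to 2299 CPM in vector libraries. Those sums are mostly Col1a2, which did not pass. For B cells, 2 of 5 were trusted and 1 of these (Cd72) was higher, with sums of 139 to 357 CPM in PSGL1_KO and 31.3 to 76.9 CPM in vector libraries, also with no overlap. That sum is mostly Cd72, which averaged 230 CPM in PSGL1_KO and 47.8 CPM in vector libraries. Pax5 overlapped, at 7.09 to 18.9 CPM in PSGL1_KO and 3.86 to 12.3 CPM in vector libraries. For T cells, 4 of 9 were trusted, of which Bach2 was higher and Sit1 lower, with sums of 403 to 505 CPM in PSGL1_KO and 350.8 to 573 CPM in vector libraries. Those sums are mostly Tox, which averaged 316 CPM in PSGL1_KO and 371 CPM in vector libraries and did not pass. Bach2 was counted with few reads, at 6 to 34 per library. For endothelial cells Cav1 was the 1 trusted marker of 5 and did not pass. Defining markers such as Adgre1 and Cd3e had no trusted name. The part of these cells in the changes of Tgfbr1, Bambi and Zeb1 was not tested. In bulk libraries a larger share of a cell type and more RNA of the gene per cell cannot be told apart.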

How the data were processed

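Per the labels' protocols, total RNA was extracted with TRIzol and made into libraries with a NEBNext Ultra kit. The authors deposited 1 table of raw read counts per versioned gene ID for each library. Per the submitters' processing notes, the tools were HISAT2, SAMtools and HTSeq and the genome was mm10. No version, annotation release or strand setting is given in the sources used here. The 5 HTSeq summary rows were kept out of library sizes. Between 67.3% and 75.4% of all reads listed fell on no feature, and gene IDs took 10.5% to 12.5%. The remainder were multiply aligned (7.71% to 13.6%), of low quality (3.55% to 5.67%), unaligned (1.05% to 3.47%) or ambiguous (0.31% to 0.47%).

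Symbols were matched without ID version for 52073 IDs, with coordinates from GENCODE M21 on GRCm38 (mm10). An earlier analysis of these data found that names and counts do not match over most of the genome, so names were trusted only in 4 stretches taken from it. They lie on chromosome 4 (3549041 to 59801589), 6 (3457096 to 17341452), 15 (9071260 to 38078854) and 18 (3266048 to 10045119), and 408 tested IDs lie there. The 22 mitochondrial IDs tested were added.

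Groups came from the sample titles. edgeR 4.0.16 in R 4.3.3 was run with TMM factors, filterByExpr, robust quasi-likelihood and the group as the only term, two-sided, over 10422 IDs. The SE is the log2 fold change divided by the square root of the F statistic. Alternatives included DESeq2 1.42.0, other scalings, no filter, file number and replicate terms, and each library left out. The script was tested on simulated data. No 2 libraries of a group agreed within sampling noise, with a mean chi-square per ID of at least 2.99.

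The members, lists and tests were chosen with earlier results of these data known. The genes named are the members, the usable list genes, the nearest tested coding genes on either side, and the 3 genes most similar to each member. The permutation within file numbers was added after the data had been seen.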

Additional observations from a re-analysis of the deposited data

Results flagged for a closer look

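The change of Zeb1 between PSGL1_KO and vector differed between the file numbers by a test of that difference, at 1.00 on the log2 scale for file number 3 minus file number 7. What the file number stands for is not given, so its part was not tested.

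Of 28 sets of values of 6 or 7 libraries checked for 1 library apart from its group, 1 was found. Chance gives about 1 in every 20 sets, so 1 find is within what chance gives. Vector replicate 1 had 215 CPM of Wwp1, while the other vector libraries had 126 to 158 CPM. That library is of file number 3. With the group in the model Wwp1 was higher in file number 3 by 0.47 on the log2 scale (adjusted p = 0.0016 in the edgeR test), where 18.9% of IDs were called higher.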

How the results depend on the processing

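Tgfbr1 kept its direction and its call in all 25 alternatives, and Bambi in 24 of 25, the exception being file number 7 alone with 0.78. Of these, 13 were fits with 1 library left out. The permutation tests among them were judged by an unadjusted p, and the other alternatives by an adjusted p. Zeb1 passed in file number 7 alone with -0.42 and changed sign in file number 3 alone (0.62), without normalization factors (0.029) and in the permutation within file numbers (0.090). With factors from trusted nuclear genes the median log2 fold change of all IDs moved to -0.21, and Tgfbr1 had 0.69 (adjusted p = 0.016 in the edgeR test), Bambi 1.09 (0.016) and Zeb1 -0.32 (0.14). Without factors that median was 0.12. Listed pathway genes called higher numbered 6 of 8 in file number 3 alone, instead of 3, and 2 to 4 with each library left out. In file number 3 alone 12.5% of all IDs were called higher. Over all libraries the share was 9.02% of all IDs and 18.8% of trusted IDs, to which these 8 belong. The share of trusted IDs in file number 3 was not taken, so the count says nothing about the pathway. Listed pathway genes called lower numbered 1 in file number 7 alone, which is Zeb1, instead of 0. Among single genes named, signs turned for Map3k7 with trusted nuclear factors (-0.086), Col15a1 in file number 3 (-0.21), and Zfp438 without factors (0.13), with the file number as a covariate (0.048), in file number 3 (0.94), with the replicate block (0.15) and with a library left out (-0.11 to 0.11). The cause was not tested.

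Same-numbered libraries of the groups correlated in their deviations at -0.05 to 0.63, not all above 0.1, and at -0.19 to 0.33 with the file number removed. Of 6 PSGL1_KO libraries, 2 correlated best with their own number. This does not show that the titles' numbers pair libraries, and it cannot exclude a pairing that the labels leave out. With the replicate block Tgfbr1 had 0.89, Bambi 1.23 and Zeb1 -0.04, and calls over all IDs were 1212 higher and 881 lower, instead of 940 and 572. The block also brought Wwp1 (adjusted p = 0.028 in the edgeR test), Alg2 (0.0067) and Arhgap12 (0.021) past the threshold. Bambi had 12 to 72 counts per library, which limits its precision. The file number 3 fits rest on 2 libraries per group. Their SE was nearly the same for well-counted genes, at 0.185 for Map3k7, 0.190 for Cav1 and 0.191 for Col1a2. Their p-values therefore rest on a spread shared over IDs, and do not measure that of each gene.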
